A study of Mus musculus with 27 samples.

Results

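The mouse heart expresses 5 actin genes that could be followed in this messenger RNA (mRNA) data set: Acta1 (skeletal alpha-actin), Actc1 (cardiac alpha-actin), Acta2 (smooth muscle alpha-actin), Actb (beta-actin) and Actg1 (gamma-actin). They are defined by name, as the actin genes of muscle and cytoplasm in the table, and all 5 were among the 8987 genes measured. Poly-A selected mRNA of the left ventricle was sequenced from adult FVB mice, 7 days after transverse aortic constriction (TAC), an operation that narrows the aorta and loads the left ventricle with pressure, or after a sham operation. The groups were WT TAC (animals 1, 17 and 19), WT sham (animals 6, 7, 13 and 15), caPI3Kalpha TAC (animals 11 and 211) and caPI3Kalpha sham (animals 5 and 8), which makes 11 libraries of 1 numbered animal each. The sample labels call the caPI3Kalpha genotype PI3Kalpha mutant. caPI3Kalpha mice carry a constitutively active form of the kinase PI3Kalpha, whose catalytic subunit is encoded by Pik3ca. The promoter that drives the transgene is not given in the sources used here. The labels do not give the age in weeks, and the labels of WT sham 15 disagree on its animal number, for which its title was taken. Values are RPKM, read counts scaled by gene length and library size, so that levels of genes of different length can be compared. The depth of the libraries is unknown.

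Actin monomers polymerise into filaments. In striated muscle the alpha-actins Actc1 and Acta1 build the sarcomeric thin filament on which myosin pulls, whereas beta- and gamma-actin build the cytoskeleton of all cells and smooth muscle alpha-actin marks vascular smooth muscle, pericytes and activated fibroblasts. Rodent hearts use Acta1 strongly before birth and little in the adult ventricle, and a rise of Acta1 under pressure load is part of what is called the fetal gene program. Several actin genes are known targets of serum response factor (SRF), which binds a short sequence called the CArG box and is helped by the cofactors MRTF-A and MRTF-B, which free actin monomers hold in the cytoplasm. The coding sequences of the actins are nearly alike and Actb and Actg1 have processed pseudogenes. How reads that match several genes were assigned is not given in the sources used here, so part of a level could come from a close relative.

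To show the sequence context of the CArG box, the 250 bases before the annotated start site are given for the 4 members with a RefSeq promoter entry (build GRCm38.p6, all on the minus strand). They lie at chr8:123894776-123895025 for Acta1, chr2:114052876-114053125 for Actc1, chr19:34255374-34255623 for Acta2 and chr11:120348496-120348745 for Actg1. Capitals mark the CArG box and the same box with 1 inner letter free to be any base, read on both strands. Each sequence runs 5′ to 3′ and ends at the base before the start site.
Acta1: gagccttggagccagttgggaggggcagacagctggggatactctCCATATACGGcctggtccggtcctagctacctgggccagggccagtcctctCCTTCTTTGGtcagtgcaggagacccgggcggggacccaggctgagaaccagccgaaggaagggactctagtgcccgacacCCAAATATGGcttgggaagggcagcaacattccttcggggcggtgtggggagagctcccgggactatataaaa
Actc1: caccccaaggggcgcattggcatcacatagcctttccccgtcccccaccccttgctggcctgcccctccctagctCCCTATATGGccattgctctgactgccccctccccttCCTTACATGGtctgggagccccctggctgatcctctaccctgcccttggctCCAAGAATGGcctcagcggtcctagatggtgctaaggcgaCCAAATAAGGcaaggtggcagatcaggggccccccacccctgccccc
Acta2: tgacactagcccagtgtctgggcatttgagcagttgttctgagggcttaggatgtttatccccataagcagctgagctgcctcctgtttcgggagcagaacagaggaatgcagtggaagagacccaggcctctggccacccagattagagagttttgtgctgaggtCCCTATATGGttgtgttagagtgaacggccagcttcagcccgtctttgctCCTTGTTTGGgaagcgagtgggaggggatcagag
Actg1: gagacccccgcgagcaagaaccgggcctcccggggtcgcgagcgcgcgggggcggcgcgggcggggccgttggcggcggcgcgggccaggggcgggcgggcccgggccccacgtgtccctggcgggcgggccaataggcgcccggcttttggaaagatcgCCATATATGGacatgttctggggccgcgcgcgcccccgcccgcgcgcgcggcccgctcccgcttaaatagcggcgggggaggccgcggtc

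A full CArG box stood in 3 of these 4 promoters. Its first letter lay 73 bases before the start in Acta1, 47 bases before it in Actc1 and 90 bases before it in Actg1. TATAAA, the core of the TATA box, read on both strands and held by 13.6% of all promoters, began 7 bases before the annotated start in Acta1 and at base 34 in Actc1, counting the start as base 1, so the annotated starts are not placed alike and the distances are not comparable between genes. The Acta2 stretch held no full box but 2 with 1 inner letter free, 84 and 34 bases before the start. Acta1 held 2 further boxes of that looser kind and Actc1 held 3. Over the 32851 RefSeq promoters of 300 bases, 1.63% held a full box and 9.98% held at least the looser one. CATTCC, the core of the M-CAT element of muscle genes, was searched on both strands and lay 46 bases before the Acta1 start and, on the opposite strand, 146 bases before the Acta2 start, while 14.7% of all promoters held it. These matches describe the letters only.

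The genotype labels were checked first. Pik3ca stood at 101.3 to 195.0 RPKM in the 4 caPI3Kalpha libraries and at 5.3 to 8.9 RPKM in the 7 WT libraries, and no library went against its label. The ventricular cardiomyocyte markers Myh6, Myl2, Myl3, Tnnt2, Tnni3, Ryr2 and Actn2 were all measured, and their summed level was 9948 RPKM or more in every library. The libraries also fell into 2 sets that the groups do not explain. The first principal component, taken without the 5 actins, held 52.04% of the variance and put WT TAC 1, WT sham 6 and all 4 caPI3Kalpha libraries on one side (first set) and WT TAC 17 and 19 and WT sham 7, 13 and 15 on the other (second set). No label names such a batch. Because every caPI3Kalpha library was in the first set, results between genotypes are given below also with a term for the set or within it. The set was drawn from the same expression values that are tested. Adjusted p from fits with its term can therefore be too small, and a call gained or held there does not show stability. The comparisons share samples, so their values are not independent.

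Actc1 was the main actin in all 4 groups. It stood at 4775.4, 5101.0 and 4512.2 RPKM in WT TAC 1, 17 and 19, against 5140.3, 5499.1, 5074.5 and 4938.3 RPKM in WT sham 6, 7, 13 and 15. It stood at 4999.8 and 5377.0 RPKM in caPI3Kalpha TAC 11 and 211, against 5396.9 and 4334.1 RPKM in caPI3Kalpha sham 5 and 8. The groups overlapped in all 4 comparisons, and Actc1 ranked first or second among all genes in every library. Its log2 change was -0.11 in WT TAC against WT sham, with a 95% interval of -0.30 to 0.08, and 0.10 in caPI3Kalpha TAC against caPI3Kalpha sham, with an interval of -0.15 to 0.35. Neither passed the test (limma, Benjamini-Hochberg adjusted p = 0.431 and 1).

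Acta1 moved most. It stood at 1202.7, 1046.4 and 1063.5 RPKM in WT TAC 1, 17 and 19, against 455.2, 89.9, 93.7 and 47.4 RPKM in WT sham 6, 7, 13 and 15. All 3 TAC libraries lay above all 4 sham libraries, and WT sham 6 lay far above the other 3 sham libraries. The group means were 1104.2 ± 85.7 RPKM in WT TAC (SD, n = 3) and 172 ± 190.3 RPKM in WT sham (SD, n = 4). Acta1 rose by 3.24 on the log2(RPKM + 0.5) scale (standard error 0.56), which is 9.44-fold (limma, adjusted p = 0.00361). Acta1 ranked between 16 and 17 among all genes in WT TAC libraries, against 44 in WT sham 6 and 282, 295 and 620 in WT sham 13, 7 and 15. The size of the rise rested on WT sham 6: without it the log2 change was 3.89, whereas within the first set, with 1 WT TAC and 1 WT sham library, it was 1.40 (limma, adjusted p = 0.0509), and within the second set 3.83 (limma, adjusted p = 0.000170). In the fits within the first set the spread comes from the 2 caPI3Kalpha groups alone, and each lone WT library is assumed to vary like them, so a call missed there says nothing about stability.

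In caPI3Kalpha hearts Acta1 stood at 1567.3 and 1806.4 RPKM in caPI3Kalpha TAC 11 and 211, against 448.3 and 403.8 RPKM in caPI3Kalpha sham 5 and 8. Both TAC libraries lay above both sham libraries, and they were the highest of the 11. The log2 change was 1.98 (standard error 0.73, 95% interval 0.37 to 3.595), a fold of 3.95, which did not pass the test (limma, adjusted p = 0.765). In this comparison limma called 0 of the 8987 genes, with 454 at an unadjusted p under 0.05, among them Acta1 and Acta2. The rise of Acta1 in WT and the change in caPI3Kalpha hearts differed by -1.26 (standard error 0.92) in the interaction term, which did not pass the test either (limma, adjusted p = 0.728). It passed without WT sham 6, at -1.91 (limma, adjusted p = 0.0312), and had the opposite sign within the first set, where it was 0.58 (limma, adjusted p = 0.375).

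Acta1 in caPI3Kalpha sham hearts, at 426 ± 31.5 RPKM (SD, n = 2), lay within the range of WT sham hearts, which the single library WT sham 6 extended upward. The log2 change was 1.87 (standard error 0.63; limma, adjusted p = 0.326). Without WT sham 6 it was 2.52 (limma, adjusted p = 0.00167), and Actg1 also passed there, at -0.90 (limma, adjusted p = 0.0444). The Acta1 change was 0.76 with a term for the library set and -0.10 within the first set. In that set the caPI3Kalpha sham libraries stood at 448.3 and 403.8 RPKM, against 455.2 RPKM in WT sham 6, while the WT sham libraries of the second set stood at 47.4 to 93.7 RPKM. Between the TAC groups Acta1 was higher in both caPI3Kalpha libraries than in all 3 WT libraries. Their log2 change of 0.61 (standard error 0.67) did not pass the test (limma, adjusted p = 0.523) and turned to -0.37 with the set term.

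**Figure D1:**
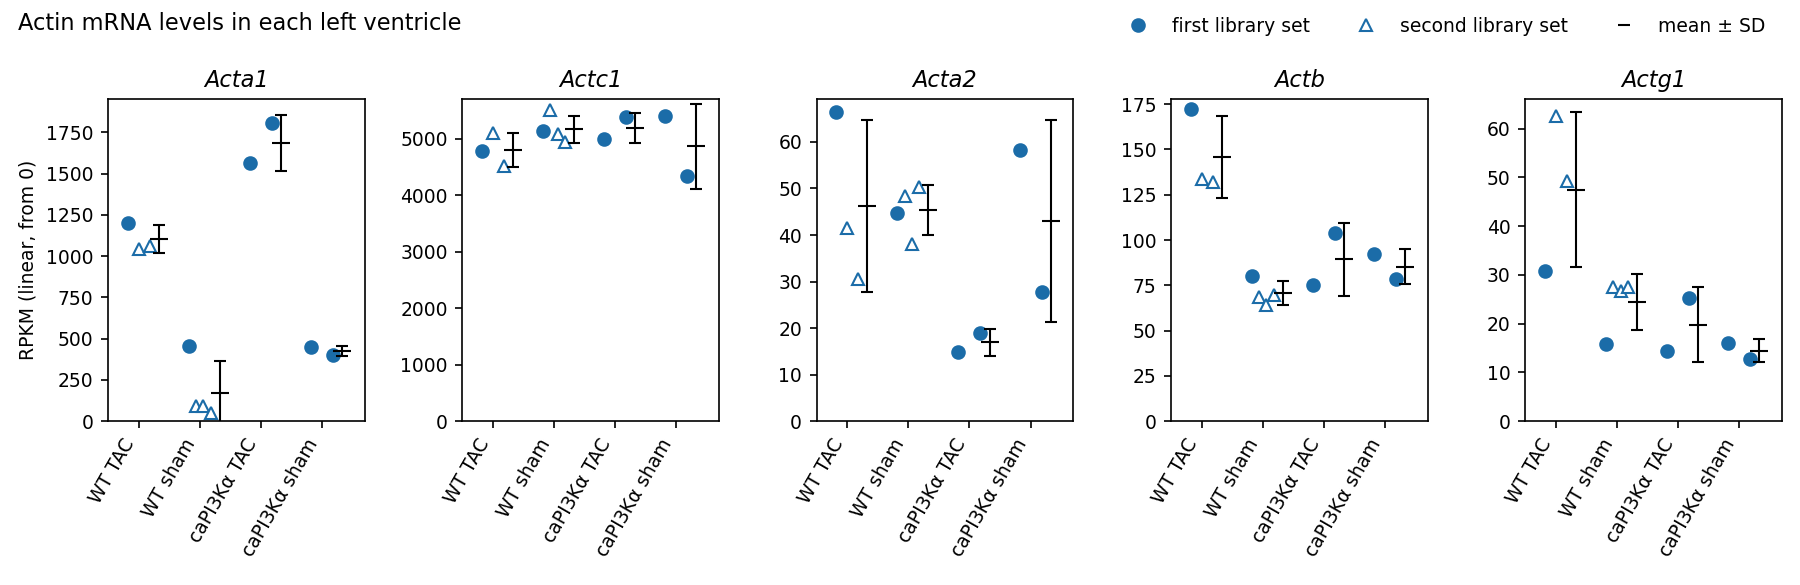
RPKM of the 5 actin genes (linear axes from 0, one scale per gene) in each of the 11 libraries, grouped as WT TAC, WT sham, caPI3Kalpha TAC and caPI3Kalpha sham. Filled circles are libraries of the first set, open triangles those of the second, and the black bars give the mean ± SD (cut at 0 for Acta1 in WT sham); Acta1 stood between 1046.4 and 1806.4 RPKM in all TAC libraries and at 455.2 RPKM or less in all sham libraries.

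Beta-actin rose with TAC in WT hearts and was lower in caPI3Kalpha TAC than in WT TAC hearts. Actb stood at 172.2, 133.8 and 131.9 RPKM in WT TAC 1, 17 and 19, against 80.0, 68.8, 64.1 and 69.7 RPKM in WT sham 6, 7, 13 and 15. All WT TAC libraries lay above all WT sham libraries. Actb rose by 1.04 on the log2 scale (standard error 0.15), a fold of 2.05 (limma, adjusted p = 0.00126), and its change was 0.91 to 1.10 when any 1 of the 7 libraries was left out. In caPI3Kalpha hearts it stood at 75.0 and 103.7 RPKM in TAC 11 and 211, against 92.3 and 78.4 RPKM in sham 5 and 8, and the groups overlapped. There the log2 change was 0.05, with a 95% interval of -0.37 to 0.47 (limma, adjusted p = 1). Actb was lower in caPI3Kalpha TAC than in WT TAC hearts, with a log2 change of -0.71 (standard error 0.17; limma, adjusted p = 0.0400). The interaction was -0.98 (standard error 0.24), which did not pass the test (limma, adjusted p = 0.152) but passed it with the set term, where it was -0.96 (limma, adjusted p = 0.0112).

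Gamma-actin, the other cytoplasmic actin, was the lowest or second lowest of the 5 in every library. Actg1 stood at 30.8, 62.5 and 49.2 RPKM in WT TAC 1, 17 and 19, against 15.8, 27.6, 26.6 and 27.6 RPKM in WT sham 6, 7, 13 and 15. It stood at 14.4 and 25.2 RPKM in caPI3Kalpha TAC 11 and 211, against 16.1 and 12.8 RPKM in caPI3Kalpha sham 5 and 8. The WT TAC libraries lay above the WT sham libraries, and Actg1 rose there by 0.92 on the log2 scale (standard error 0.28; limma, adjusted p = 0.0457). The call was close to the threshold: it was lost with quantile normalization (limma, adjusted p = 0.0829), with library medians set equal (0.113) and without any 1 of the 7 libraries other than WT TAC 1, and held with the set term (0.000724). The values of caPI3Kalpha TAC lay below those of WT TAC, with a log2 change of -1.24 (standard error 0.33) that did not pass the test (limma, adjusted p = 0.0510).

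The ratio of Actb to Actg1 differed between the library sets, which is a description only. The sets were drawn from the other genes of these same libraries, so many genes can differ between them. How many do was not counted. It was 4.12 to 6.13 in the 6 libraries of the first set and 2.14 to 2.68 in the 5 libraries of the second, without overlap. Within WT TAC it was 5.59 in animal 1 against 2.68 and 2.14 in animals 19 and 17, and within WT sham it was 5.06 in animal 6 against 2.41 to 2.53 in the other 3. The part of the library set in the Actg1 levels was not tested beyond the fits given here.

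Acta2 differed with TAC in WT hearts by less than its spread. It stood at 66.5, 41.5 and 30.5 RPKM in WT TAC 1, 17 and 19, against 44.8, 48.4, 38.1 and 50.3 RPKM in WT sham 6, 7, 13 and 15, and the TAC values lay on both sides of the sham range. The log2 change was -0.04, with a 95% interval of -0.66 to 0.57 (limma, adjusted p = 0.945). In caPI3Kalpha hearts Acta2 stood at 14.9 and 19.0 RPKM in TAC 11 and 211, the 2 lowest values of the 11 libraries, against 58.3 and 27.7 RPKM in sham 5 and 8. The log2 change was -1.23 (standard error 0.37; limma, adjusted p = 0.534) and ranged from -1.76 without caPI3Kalpha sham 8 to -0.70 without caPI3Kalpha sham 5. Against WT TAC, Acta2 fell by 1.36 on the log2 scale in caPI3Kalpha TAC (standard error 0.33; limma, adjusted p = 0.0407).

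The Acta2 and Actb calls between the TAC groups depended on the samples and the scaling. Neither passed the test with quantile normalization (limma, adjusted p = 0.0764 for Acta2 and 0.0631 for Actb), with library medians set equal, with those 2 groups alone, within the first set, or when caPI3Kalpha TAC 11, caPI3Kalpha TAC 211, WT TAC 17 or WT TAC 19 was left out. Both passed with the set term, where the log2 changes were -1.63 for Acta2 and -0.92 for Actb, and without WT TAC 1.

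Counted over the 5 members, WT TAC against WT sham gave 3 higher (Acta1, Actb and Actg1) and 0 lower, where limma called 16.5% of all 8987 genes, 13.6% higher and 2.85% lower. The same 3 members had groups that did not overlap, as did 18.9% of all genes in the higher direction and 4.65% in the lower one. caPI3Kalpha TAC against caPI3Kalpha sham gave 0 of 5, where 0.0% of all genes were called. At an unadjusted p under 0.05 there were 2 of the 5 members, and 454 of all 8987 genes. Acta1 had groups that did not overlap in the higher direction and Acta2 in the lower one, as 22.4% and 20.0% of all genes did, so these separations with 2 libraries a group were near the background. caPI3Kalpha sham against WT sham gave 0 of 5 by limma, where 0.0111% of all genes were called. Acta1 and Actg1 had an unadjusted p under 0.05 there, as did 1193 of all 8987 genes. All 5 members overlapped, whereas 9.42% of all genes were higher and 10.1% lower without overlap. caPI3Kalpha TAC against WT TAC gave 2 lower (Acta2 and Actb), where 6.52% of all genes were called, 0.746% higher and 5.78% lower. There Acta1 was higher and Acta2, Actb and Actg1 were lower without overlap, as 11.5% and 36.2% of all genes were in those directions. The interaction gave 0 of 5 by limma, where 0.312% of all genes were called. Acta2 and Actb had an unadjusted p under 0.05 in it, as did 926 of all 8987 genes.

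**Figure D2:**
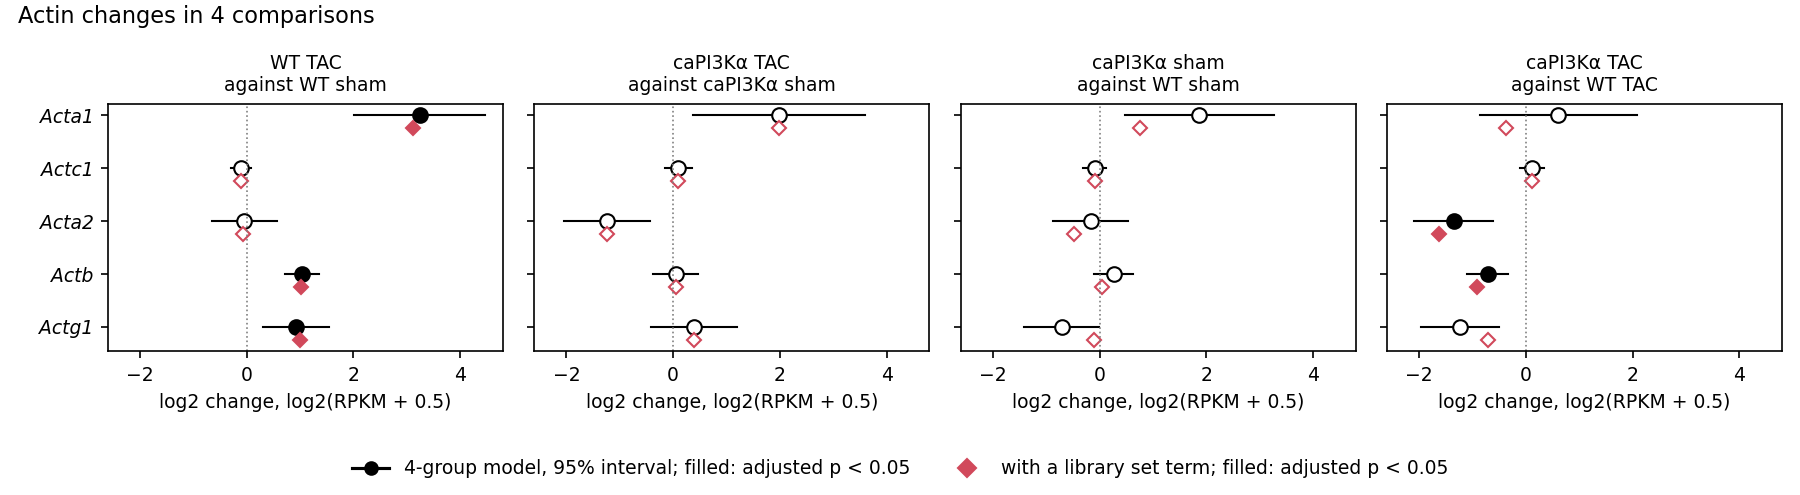
Change of each actin gene on the log2(RPKM + 0.5) scale in 4 comparisons, the first-named group over the second. Circles with 95% intervals come from 1 limma model of the 4 groups and diamonds from the same model with a library set term, both filled where the adjusted p was under 0.05; Acta1 (3.24), Actb (1.04) and Actg1 (0.92) are filled in WT TAC against WT sham, and Acta2 (-1.36) and Actb (-0.71) in caPI3Kalpha TAC against WT TAC.

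Acta1 held a larger part of the actin pool in every TAC library than in any sham library. Summed over the 5 genes, actin RPKM was 6247.6, 6385.2 and 5787.3 in WT TAC 1, 17 and 19, against 5736.1, 5733.8, 5297.0 and 5133.3 in WT sham 6, 7, 13 and 15, and 6671.4 and 7331.3 in caPI3Kalpha TAC, against 6011.9 and 4856.8 in caPI3Kalpha sham. The pool made up 2.39% to 3.50% of the RPKM of all listed genes. Acta1 held 19.3%, 16.4% and 18.4% of it in WT TAC 1, 17 and 19, against 7.94%, 1.57%, 1.77% and 0.923% in WT sham 6, 7, 13 and 15. In caPI3Kalpha TAC 11 and 211 it held 23.5% and 24.6%, against 7.46% and 8.31% in caPI3Kalpha sham 5 and 8. Every TAC library lay above every sham library.

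Each genotype alone has too few libraries for a small p in an exact permutation test of these shares. The difference in the Acta1 share was 15.0 percentage points in WT (two-sided exact p = 0.0571) and 16.2 percentage points in caPI3Kalpha hearts (two-sided exact p = 0.333), each the smallest p that its design allows. With labels permuted within genotype over all 11 libraries, the mean difference was 15.6 percentage points (two-sided exact p = 0.00952, the smallest possible; 0.0952 after Benjamini-Hochberg adjustment over 50 share and ratio tests). All 5 TAC libraries were higher. The Actc1 share moved the other way, to 78.1 ± 1.73% in WT TAC, against 94.4 ± 3.18% in WT sham, and to 74.1 ± 1.13% in caPI3Kalpha TAC, against 89.5 ± 0.377% in caPI3Kalpha sham (SD). Shares of the same pool are tied to each other, so this is no result apart from the rise of the Acta1 share. The Actc1 level itself overlapped between the groups, which does not show that it was unchanged.

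The caPI3Kalpha TAC share of Acta1 was 6.06 percentage points above that of WT TAC (two-sided exact p = 0.2, the smallest possible with 2 against 3 libraries; higher in 2 of 2). In sham hearts the caPI3Kalpha share was 4.84 percentage points above that of WT, where the groups overlapped (two-sided exact p = 0.267), and within the first set the difference was -0.0502 percentage points.

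**Figure D3:**
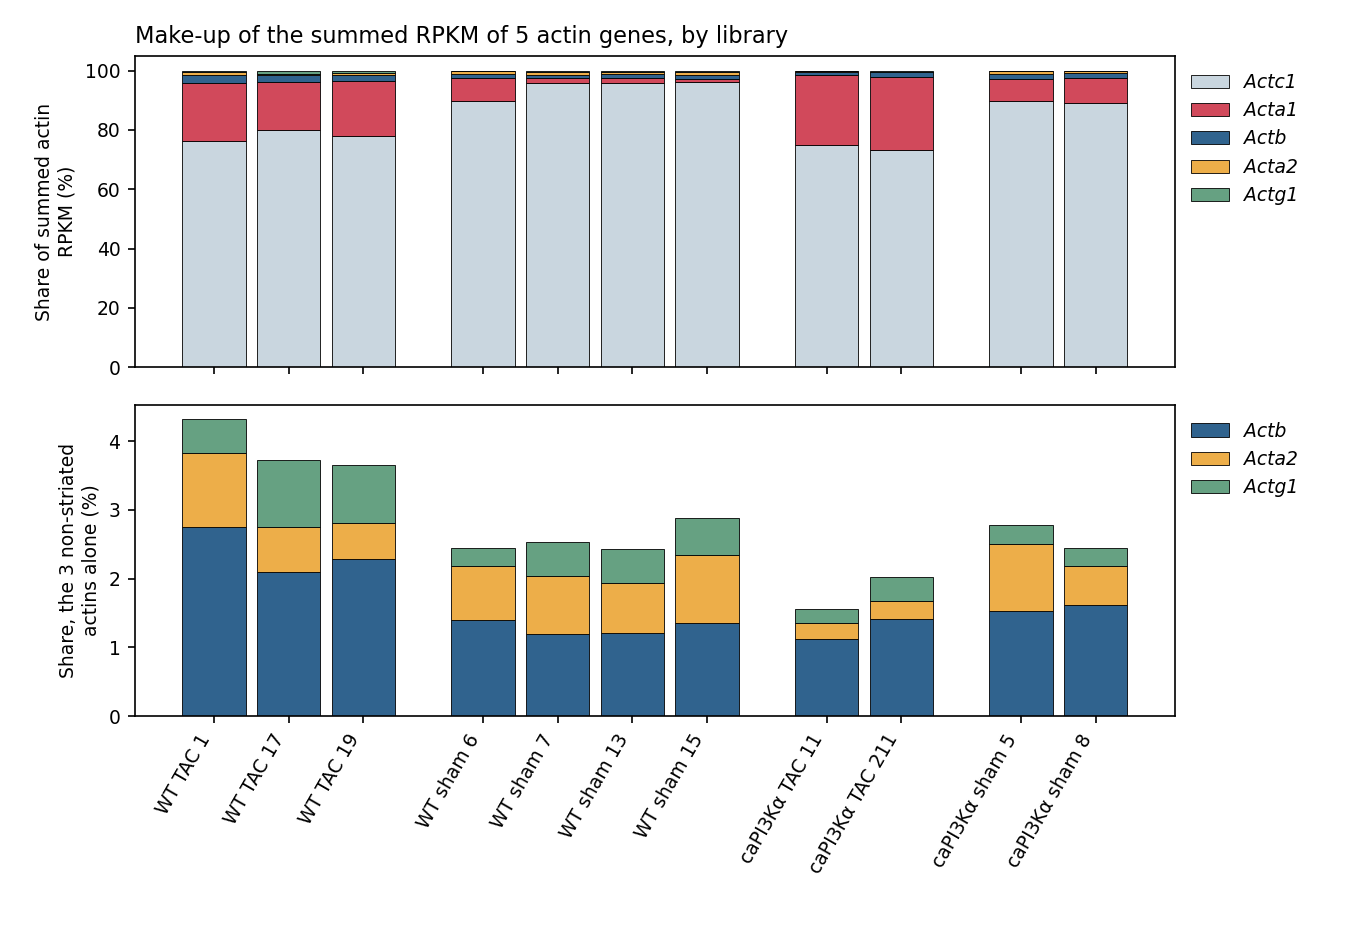
Share of each actin gene in the summed actin RPKM of each library, in percent, for all 5 genes (upper panel) and for Actb, Acta2 and Actg1 alone (lower panel, its own scale). Acta1 held 16.4% to 24.6% in the TAC libraries and 0.923% to 8.31% in the sham libraries, and Actb held 2.10% to 2.76% in WT TAC and 1.12% to 1.61% in the other groups.

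The 3 non-sarcomeric actins made up a small part of the pool. Actb held 2.38 ± 0.341% in WT TAC, against 1.29 ± 0.10% in WT sham, and 1.27 ± 0.205% in caPI3Kalpha TAC, against 1.57 ± 0.0558% in caPI3Kalpha sham. Acta2 held 0.241 ± 0.0253% in caPI3Kalpha TAC, against 0.747 ± 0.282% in WT TAC. The ratio of Acta2 to Actb was lower in every TAC library, at 0.386, 0.310 and 0.231 in WT TAC 1, 17 and 19, against 0.560 to 0.722 in WT sham, and at 0.199 and 0.183 in caPI3Kalpha TAC 11 and 211, against 0.632 and 0.353 in caPI3Kalpha sham 5 and 8. On the log2 scale its mean difference within genotype was -1.20 (two-sided exact permutation p = 0.00952, adjusted 0.0952). In WT hearts the numerator overlapped and the denominator was higher, whereas in caPI3Kalpha hearts the numerator was lower and the denominator overlapped.

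The order of the 5 levels was not the same in all groups. Actc1 stood above Acta1 and Acta1 above Actb in 10 of 11 libraries. The exception was WT sham 15, where Acta1, at 47.4 RPKM, lay below Actb (69.7 RPKM) and Acta2 (50.3 RPKM). At the bottom, Acta2 stood above Actg1 in all sham libraries, and the other way round in WT TAC 17, WT TAC 19 and caPI3Kalpha TAC 211. In both TAC groups the Acta2 and Actg1 values overlapped, so these neighbours did not differ beyond their spread, and in WT sham the Acta1 values overlapped those of Actb and Acta2.

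Genes around actin were read from lists grouped by role, shown as list plots of log2 changes. The list of thin filament and filament end genes, 20 of 21 measured, gave 1 higher and 2 lower in WT TAC against WT sham, with a median log2 change of 0.06, against 0.17 over all genes. These 3 of 20 are near the background of 16.5% of all genes called, so the count is no result about the list. Of the 3, Xirp2, an actin-binding repeat protein of the intercalated disc, rose by 2.21 (standard error 0.16; limma, adjusted p = 2.83e-05), to a mean of 318.7 RPKM in WT TAC, against 67.2 RPKM in WT sham. Tmod1, the tropomodulin that caps pointed ends, fell by 0.38 (limma, adjusted p = 0.0198), and the formin Fhod3 fell by 0.35 (limma, adjusted p = 0.0297). Both of these calls were lost without WT sham 7, without WT sham 15 or without WT TAC 19.

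Of the genes of cytoplasmic actin turnover, 31 of 33 were measured. In WT TAC against WT sham 16 were higher, 0 lower and 15 did not pass, where 13.6% of all genes were called higher. The median log2 change was 0.57, against 0.17 over all genes. Among those that did not pass were the monomer-binding profilin gene Pfn1, at 0.55 (limma, adjusted p = 0.111), and the severing protein gene Gsn, at -0.47 (0.0920), both named after their values were seen. Enah, which protects growing barbed ends, rose by 1.00 (limma, adjusted p = 0.000381). Cofilin Cfl1, which severs filaments, rose by 0.82 (adjusted p = 0.00339), the monomer-binding Tmsb4x by 0.83 (0.00371) and the monomer-recycling Cap1 by 0.76 (0.00211), all by limma. The count of 16 became 10 without WT TAC 17, 9 higher and 1 lower with library medians set equal, and 26 higher and 1 lower with the set term. Non-muscle actin-binding genes, 24 of 26 measured, gave 17 higher and 0 lower, with a median of 0.78. Among them the intermediate filament gene Vim rose by 1.48 (limma, adjusted p = 2.83e-05), the leukocyte bundling protein Lcp1 by 1.54 (0.000229), the non-muscle myosin Myh10 by 1.07 (0.000383) and the membrane linker Msn by 0.97 (0.000401). The count of 17 became 11 with library medians set equal. Within the first set, with 1 WT TAC and 1 WT sham library, at most 1 gene of any of the 8 lists around actin passed.

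In caPI3Kalpha TAC against caPI3Kalpha sham, limma called 0 genes of either list, with 1 at an unadjusted p under 0.05 in each, and their medians were 0.10 and 0.10. In caPI3Kalpha TAC against WT TAC the turnover list gave 1 higher and 7 lower, with Cap1 at -0.71 (limma, adjusted p = 0.0224), Tmsb4x at -0.80 (0.0297), Enah at -0.34 (0.113) and Cfl1 at -0.44 (0.105). The non-muscle list gave 0 higher and 10 lower, with Vim at -1.16 (limma, adjusted p = 0.00175) and Lcp1 at -1.79 (0.00138). Of all genes, 0.746% were called higher and 5.78% lower in this comparison. All genes shifted downward, with a median of -0.18, against -0.34 for the turnover list and -0.47 for the non-muscle list. The 7 lower turnover genes became 0 to 2 and the 10 lower non-muscle genes became 2 to 4 when caPI3Kalpha TAC 11, caPI3Kalpha TAC 211, WT TAC 17 or WT TAC 19 was left out, and 11 and 13 without WT TAC 1. With library medians set equal they were 1 and 5, with quantile normalization 3 and 5, and within the first set 0 and 0.

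**Figure D4:**
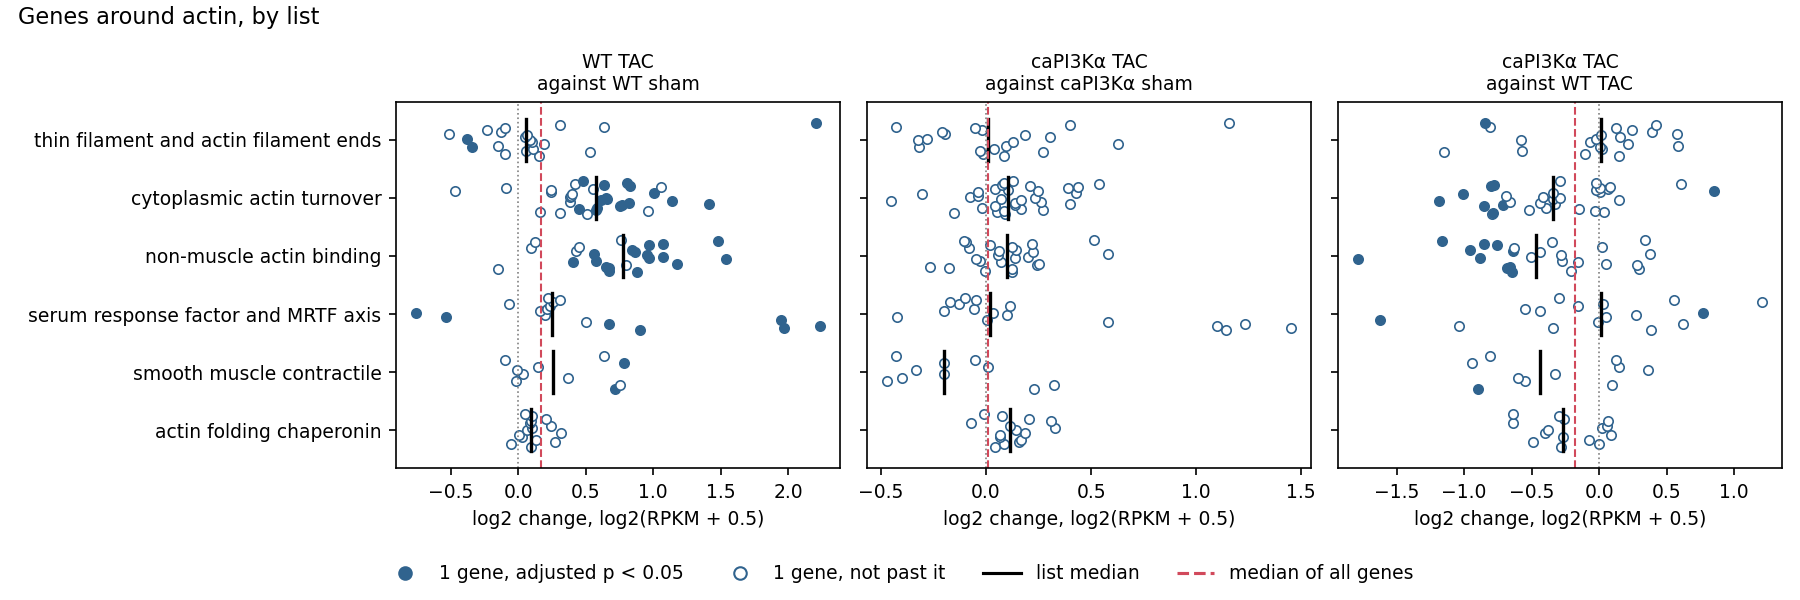
Log2 change of each measured gene of 6 lists around actin in 3 comparisons, filled where the limma adjusted p was under 0.05; black bars are list medians and the dashed line is the median of all genes. In WT TAC against WT sham 16 of 31 turnover genes and 17 of 24 non-muscle actin-binding genes are filled on the higher side, and no gene is filled in caPI3Kalpha TAC against caPI3Kalpha sham.

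Genes of the SRF and MRTF axis split in direction. Of 16 measured of 20, 5 were higher and 2 lower in WT TAC, where 13.6% of all genes were called higher and 2.85% lower. The list median was 0.25, against 0.17 over all genes. Ctgf, a matricellular protein gene, rose by 2.24 (limma, adjusted p = 0.000774), the stretch-responsive Ankrd1 by 1.97 (0.000285) and the LIM protein gene Fhl1 by 1.95 (0.000558), whereas Hopx, which encodes an inhibitor of SRF, fell by 0.76 (0.00193). In caPI3Kalpha TAC against WT TAC, Fhl1 was lower, at -1.62 (limma, adjusted p = 0.0164), and Hopx higher, at 0.77 (0.0174), and both calls were lost without WT TAC 17, WT TAC 19, caPI3Kalpha TAC 11 or caPI3Kalpha TAC 211. Of the fetal program genes, all 8 measured, 3 were higher and 2 lower in WT TAC, and the counts were the same in each of the 7 fits that left out 1 library. With quantile normalization 3 were higher and 0 lower. Ankrd1 stands in both lists and is counted in each. The median of the fetal program list was 0.31, against 0.17 over all genes. Myh7, named after its values were seen, did not pass, at 0.11 (limma, adjusted p = 0.788). The natriuretic peptide genes Nppa and Nppb rose by 3.47 (limma, adjusted p = 7e-05) and 2.25 (0.00363), and Atp2a2, which returns calcium to the sarcoplasmic reticulum, fell by 0.49 (0.00362). In caPI3Kalpha TAC against caPI3Kalpha sham none of the 8 passed limma, with 4 at an unadjusted p under 0.05, and Nppa had a log2 change of 2.21 (limma, adjusted p = 0.13).

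The actin folding list holds subunits of the chaperonin that folds actin, and also prefoldin and other folding genes. It gave 0 of 15 in WT TAC against WT sham by limma, where 16.5% of all genes were called. Its median of 0.09 lay below that of all genes, with the chaperonin gene Cct8 at 0.32 (limma, adjusted p = 0.199). Of its genes, 2 were called without WT TAC 1 and with the set term. Of the other actins and actin-like genes, 8 of 13 were measured. Actr1b, a subunit of dynactin, rose by 0.52 in WT TAC (limma, adjusted p = 0.0388), the 1 call among them. This 1 of 8 is near the background of 13.6% of all genes called higher, so the count is no result about the list. The call was lost when any 1 library other than WT sham 6 or WT TAC 1 was left out.

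Markers of other cell types moved with some members. Fibroblast markers, all 8 measured, gave 5 higher in WT TAC against WT sham and 3 lower in caPI3Kalpha TAC against WT TAC, and their summed level was 747.7 to 881.7 RPKM in WT TAC, against 295.2 to 402.3 RPKM in WT sham, and 380.2 to 406.7 RPKM in caPI3Kalpha TAC, against 283.0 to 315.3 RPKM in caPI3Kalpha sham. Macrophage markers, 8 of 9 measured, gave 7 higher and 5 lower in the same comparisons, with sums of 231.9 to 274.1 RPKM in WT TAC, against 102.2 to 116.7 RPKM in WT sham, and 101.0 to 116.6 RPKM in caPI3Kalpha TAC, against 91.5 to 143.5 RPKM in caPI3Kalpha sham. Of all genes, 13.6% were called higher in WT TAC against WT sham and 5.78% lower in caPI3Kalpha TAC against WT TAC. In the second comparison, leaving out 1 library gave 1 to 5 fibroblast markers and 1 to 6 macrophage markers called. The fibroblast and macrophage sums were highest in the 3 WT TAC libraries, as was Actb, and their part in the actin results was not tested. The ventricular cardiomyocyte sum was 9948 to 11195 RPKM in WT TAC, against 13017 to 14683 RPKM in WT sham, and 12695 to 13066 RPKM in caPI3Kalpha TAC, against 12413 to 14154 RPKM in caPI3Kalpha sham. Of its 7 genes, 1 was called in WT TAC against WT sham, Myh6 at -0.68 (limma, adjusted p = 0.00574), where 2.85% of all genes were called lower. Myh6 also stands in the fetal program list. The list median was -0.23, and Actn2, at 0.16, was the 1 gene with a positive change. Endothelial markers, all 6 measured, gave 1 higher in WT TAC against WT sham, Pecam1 at 0.40 (limma, adjusted p = 0.0175), near the background of 13.6%, with a list median of 0.09, below that of all genes. In whole ventricle, fewer cells of a type and less RNA per cell cannot be told apart.

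Smooth muscle and pericyte markers, 7 of 10 measured, summed to 128.2 RPKM in both caPI3Kalpha TAC libraries, against 124.5 to 126.7 RPKM in caPI3Kalpha sham and 133.5 to 166.5 RPKM in WT TAC. The pericyte gene Rgs5 held much of this sum, with a mean of 69.05 RPKM in caPI3Kalpha TAC, against 58.3 RPKM in caPI3Kalpha sham. Of the 7 genes, 3 had a positive and 4 a negative log2 change between these groups, with a median of -0.20, and limma called 0, with Myh11 at an unadjusted p under 0.05. Myh11, the smooth muscle myosin, named after its values were seen, stood at 4.4 to 4.9 RPKM in caPI3Kalpha TAC, against 6.1 to 7.2 RPKM in caPI3Kalpha sham and 6.0 to 8.5 RPKM in WT TAC. Its log2 change against WT TAC was -0.55 (limma, adjusted p = 0.0591). Of the smooth muscle contractile genes, 10 of 13 were measured, and 2 were higher and 0 lower in WT TAC against WT sham, near the background of 13.6%. Cald1 rose by 0.72 (limma, adjusted p = 0.0166) and Tagln by 0.79 (0.0363) in WT TAC, where Acta2 did not. Both calls were lost without WT TAC 17.

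Acta1 is the main actin of skeletal muscle, so fast skeletal muscle markers were read beside it. Of 11 such genes only 2 were measured, Myh1 and Myh4. Their summed level was 7.0 to 8.0 RPKM in WT TAC, against 10.5 to 12.3 RPKM in WT sham. In caPI3Kalpha hearts it was 7.9 to 9.2 RPKM after TAC, against 8.0 to 10.5 RPKM after sham, and the groups overlapped. Both genes stood low, and the part of skeletal muscle in the Acta1 levels was not tested. Of the 4 atrial markers, Myl7, Myl4 and Sln stood at 20.8, 20.4 and 13.7 RPKM in caPI3Kalpha TAC 11 and at 0.4, 1.8 and 0.4 RPKM in caPI3Kalpha TAC 211. The other, Nppa, lay the other way, at 426.3 RPKM in caPI3Kalpha TAC 11 and 650.9 RPKM in caPI3Kalpha TAC 211. Sln had means of 0.83 RPKM in WT TAC, 0.45 RPKM in WT sham and 0.5 RPKM in caPI3Kalpha sham. It thus met the listing limit of 3 RPKM only through caPI3Kalpha TAC 11, so its high level there is no separate result. The blood markers, 4 of 5 measured, summed to 761.4 RPKM in caPI3Kalpha TAC 11 and 30.0 RPKM in caPI3Kalpha TAC 211. Without caPI3Kalpha TAC 11 the Acta1 log2 change in caPI3Kalpha TAC against caPI3Kalpha sham was 2.09, and without caPI3Kalpha TAC 211 it was 1.88.

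The genes whose pattern was most like each member were named by Pearson correlation of log2(RPKM + 0.5) over the 11 libraries among 3328 genes with a mean of 10 RPKM or more, as a description, since libraries share groups and sets. For Acta1 they included Hspb6 (r = 0.969), Fbxo40 (0.968), Gnas (0.959) and Habp4 (0.957). For Actb they were Csrp1 (r = 0.989), Tagln2 (0.976), Col3a1 (0.971), Lamc1 (0.968) and Col1a2 (0.968), and for Actg1 they were Gyg (0.968), Ddb1 (0.968), Cald1 (0.967), Prkar1a (0.966) and Dcn (0.965). Acta2 had Igf2r (r = 0.924), C3 (0.875), Ednra (0.859), Naca (0.853) and Prpf8 (0.826) nearest to it. Actc1 had weaker neighbours, Carkd (r = 0.863), Dusp1 (0.763), Tubb2c (0.709), Gng5 (0.691) and C130080G10Rik (0.679). Over the 10 pairs of members, the highest r was 0.688, for Acta1 and Actb, and the lowest was -0.457, for Acta1 and Acta2.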

How the data were processed

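Poly-A selected mRNA of 11 left ventricles was sequenced as single-end reads, per the labels' protocols. The deposited table gives RPKM to 1 decimal, computed by the authors, for genes with 3 RPKM or more in at least 1 library, per the file headers. The genome build mm9 and the tools Bowtie, CASAVA 1.6 and Partek 6.5 appear, with no role, per the submitters' processing notes. Of 9251 lines, 261 blank lines, 1 error mark and 2 repeats were left out, which gave 8987 genes, whose RPKM summed to 202916.4 to 212396.3 per library. Depth is unknown, so no counting error can be given. Samples were grouped by their titles. Nothing in the labels says more on the replicates than an animal number. limma 3.58.1 (R 4.3.3; linear model of the 4 groups, empirical Bayes with trend) was run on log2(RPKM + 0.5) for genes with a mean of 1 RPKM or more, with two-sided p adjusted after Benjamini-Hochberg and called under 0.05, and was tested on simulated data. Fold changes on this scale understate low genes. Shares and ratios were tested with exact permutation (Python 3.11.15). Named genes were the 5 members, the 5 genes most like each (1 of them is not reported here), up to 4 genes per list with the smallest p in WT TAC against WT sham, and Pik3ca. The members and lists were chosen with earlier results of these data known. The pseudocount, the filter, the scaling, the samples fitted, the library set and each library were varied. The small RNA libraries were not used here.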

Additional observations from a re-analysis of the deposited data

Results flagged for a closer look

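WT sham 6 stood apart from the other 3 WT sham libraries in 5 of the values reported, by its gap to the nearest library relative to the range of the group. For a single value, chance gives such a gap in about 1 in 20 groups. More values than these 5 were searched. The 5 are not independent: the Acta1 level goes with the Acta1 and Actc1 shares, and the Actg1 level with the ratio of Actb to Actg1. Its Acta1 level was 455.2 RPKM, against 47.4 to 93.7 RPKM in the others, and its Acta1 share of the actin pool was 7.94%, against 0.923% to 1.77%. Its Actc1 share was 89.6%, against 95.8% to 96.2%. Its Actg1 level was 15.8 RPKM, against 26.6 to 27.6 RPKM, and its ratio of Actb to Actg1 was 5.06, against 2.41 to 2.53. It is the 1 WT sham library of the first library set, and the cause of the gap was not tested.

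For 2 values the TAC libraries lay above the sham libraries in WT and below them in caPI3Kalpha hearts. The difference between the genotypes was not tested for them. The Actb share differed by 1.09 percentage points in WT TAC against WT sham and by -0.305 percentage points in caPI3Kalpha TAC against caPI3Kalpha sham. The log2 ratio of cytoplasmic (Actb and Actg1) to sarcomeric (Acta1 and Actc1) actin was 0.878 higher in WT TAC than in WT sham, and differed by -0.274 in caPI3Kalpha TAC against caPI3Kalpha sham. Both caPI3Kalpha differences rest on 2 against 2 libraries (two-sided exact permutation p = 0.333 each, the smallest possible). Of all genes, 20.0% had a lower RPKM without overlap between these groups. The Actb and Actg1 levels themselves overlapped there, whereas Acta1 was higher. Genes around actin were picked for this look by a small p in WT TAC against WT sham. The interaction of genotype and TAC passed the test for Vim, at -1.59 (limma, adjusted p = 0.0067). It also passed for Lcp1, at -1.59 (limma, adjusted p = 0.034), where 0.312% of all genes were called. The WT comparison is a part of the interaction, so picking genes by it favours an interaction opposite in sign to the WT change. Every caPI3Kalpha library is in the first library set, and this fit has no set term, so it does not separate genotype from set. Both Vim and Lcp1 belong to the non-muscle actin-binding list. Leaving out any 1 of the 11 libraries gave 0 to 2 genes of that list called, so neither call held in every such fit.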

How the results depend on the processing

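Within the first library set alone, WT TAC against WT sham gave 0 members called, with log2 changes of 1.40 for Acta1 and 0.56 for Acta2, and an Acta1 share difference of 11.3 percentage points. There caPI3Kalpha sham against WT sham gave -0.10 for Acta1 and -0.0502 percentage points for its share, caPI3Kalpha TAC against WT TAC gave 0 members called, the Acta1 interaction was 0.58, and the share difference within genotype was 13.7 percentage points (exact permutation p = 0.167); fewer samples enter these fits, where WT TAC and WT sham have 1 library each and are assumed to vary like the caPI3Kalpha groups. caPI3Kalpha TAC against WT TAC also gave 0 members called with quantile normalization, with library medians set equal and with the compared groups alone. With the set term Acta1 was -0.37 there and 1 member was called in the interaction; the cause was not tested. Leaving out 1 library gave 2 to 3 members called in WT TAC against WT sham, 0 to 0 in caPI3Kalpha TAC against caPI3Kalpha sham, 0 to 2 in caPI3Kalpha sham against WT sham, 0 to 3 in caPI3Kalpha TAC against WT TAC and 0 to 1 in the interaction. The Acta1 log2 changes in these were 2.81 to 3.89, 1.88 to 2.09, 1.44 to 2.52, 0.51 to 0.71 and -1.91 to -0.83. Changes of sign without 1 library concerned members that were not called: Acta2 in WT TAC against WT sham (-0.34 to 0.22), Actc1 (-0.058 to 0.26) and Actb (-0.18 to 0.28) in caPI3Kalpha TAC against caPI3Kalpha sham, and Actc1 (-0.25 to 0.065) and Acta2 (-0.70 to 0.37) in caPI3Kalpha sham against WT sham. The Acta1 share differences were 14.2 to 16.6, 15.6 to 16.8, 4.13 to 6.47, 5.25 to 6.68 and 15.2 to 16.4 percentage points in the 4 comparisons and within genotype. No paired analysis was possible because the compared mRNA groups share no animal number. With 2 libraries in each caPI3Kalpha group and unknown depth, small differences there could not be detected.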
